A study of Mus musculus with 10 samples.

Results

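Long noncoding RNAs of intergenic regions were measured with 1862 array probes in hearts of HIPK2 knockout and wild-type mice. The probes are the non-control probes that the array names by a region and a strand alone, outside a block of chromosome 4 from 39.84 to 44 Mb, and that were well above background on at least 4 of 5 arrays of a genotype. The array carries 4442 such probes of any signal, so 41.9% were kept. Of the 52156 remaining probes, 28827 were kept (55.3%). In all, 30693 of 56605 probes were kept, and these include 4 intergenic probes inside the chromosome 4 block that are not described here. The kept probes lie in 1529 distinct regions and carry 1749 distinct region and strand names.

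Cardiac tissue came from male C57BL/6 mice, 5 samples of each genotype, with total RNA labelled by Cy3 on 1-colour Agilent arrays. The knockout (HIPK2-/-) carries a 56 bp frameshift deletion in the second exon of Hipk2, made by CRISPR injection of embryos, so it is present in every cell type. The line was expanded by crosses with wild-type C57BL/6 mice. The labels give neither the age of the mice nor whether each sample was a separate mouse, and p-values reflect only how much these samples varied. Signals are log2 values relative to the 75th percentile of each array, and differences are knockout minus wild type.

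HIPK2 is a nuclear serine/threonine kinase that acts on transcription factors, p53 among them. Long intergenic noncoding RNAs are transcribed from regions between protein-coding genes, are often spliced and polyadenylated, and tend to be less abundant and more tissue-restricted than messenger RNAs. In the heart, known members of the class act in cardiac lineage commitment, chromatin control and nuclear body assembly. Because such transcripts can come from either strand of a region, the array's strand suffix (F for forward, R for reverse) is part of each probe's identity, and every kept probe matched the plus strand for F and the minus strand for R. The deposited files describe them as lincRNA.

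The probes below are called ones described in the results: 2 rising probes of one forward-strand region on chromosome 16 and 1 of the region after it, 2 rising probes of a chromosome 14 region, 2 falling probes each of a chromosome 2 and a chromosome 4 region, and single probes that fell beside Zfhx2 and Neat1 or rose near Tgfbr3. Each is printed 5′ to 3′ as the array files give it. Capitals mark the polyadenylation hexamer AATAAA or its reverse complement TTTATT.
A_30_P01028355: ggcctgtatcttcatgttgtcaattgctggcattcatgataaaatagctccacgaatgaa
A_30_P01020675: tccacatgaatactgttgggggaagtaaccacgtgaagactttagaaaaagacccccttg
A_30_P01018953: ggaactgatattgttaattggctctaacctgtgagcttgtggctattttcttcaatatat
A_30_P01020003: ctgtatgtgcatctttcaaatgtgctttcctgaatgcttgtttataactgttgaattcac
A_30_P01032293: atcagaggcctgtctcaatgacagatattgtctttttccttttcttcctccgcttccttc
A_30_P01024134: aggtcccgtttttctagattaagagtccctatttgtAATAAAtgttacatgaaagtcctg
A_30_P01021448: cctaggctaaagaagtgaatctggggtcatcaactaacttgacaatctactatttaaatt
A_30_P01024929: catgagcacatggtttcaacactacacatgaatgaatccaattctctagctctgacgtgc
A_30_P01020436: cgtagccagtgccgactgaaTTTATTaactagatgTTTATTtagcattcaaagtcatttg
A_30_P01032418: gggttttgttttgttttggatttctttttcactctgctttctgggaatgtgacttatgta
A_30_P01019037: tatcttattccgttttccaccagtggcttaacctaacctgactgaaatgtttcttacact
A_30_P01019218: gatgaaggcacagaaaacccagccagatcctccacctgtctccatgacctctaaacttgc

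Several features of the arrays bear on every value. The 3 Hipk2 probes, at chr6:38648097-38648156, chr6:38693102-38693161 and chr6:38768232-38768291 (mm9), were well above background on all 10 arrays with differences of 0.04, -0.01 and 0.11 and overlapping genotypes. None shares 15 bases with the deleted stretch, so they do not check the labels. The 75th percentile ran from 286 to 460.5 intensity units on knockout arrays and from 462 to 542 on wild-type arrays, and knockout replicate 3 was the dimmest. Wild-type replicates 1 and 2 stood alone on 1 slide, and the other 8 arrays shared the second. The cardiomyocyte score ran from 7.61 to 8.43 over the 10 arrays. Cell type marker scores (mean log2 signal of a list) also moved with genotype: the endothelial score, 2.18 ± 0.10 in knockout hearts, was 2.53 ± 0.04 in wild-type hearts (SD, n = 5; two-sided exact permutation p = 0.00794, adjusted over 10 lists 0.0397). The cardiomyocyte, ventricular and macrophage scores differed by 0.42, 0.52 and -0.36 (each exact permutation p = 0.0159, adjusted 0.0397). The atrial score spanned -2.75 to 1.56 in knockout and -3.02 to 4.81 in wild type, and the fat score -5.04 to -2.96 and -4.17 to 0.29 (exact permutation p = 0.127 and 0.0397, adjusted 0.193 and 0.0794). The part of these differences in the results that follow was not tested beyond the fits with atrial and fat scores given with the counts. In tissue RNA, fewer cells of a type and less RNA per cell cannot be told apart.

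Intergenic probes were dimmer and less often detected than the rest of the array. The kept intergenic probes had a median signal of -2.58, against -0.78 for the remaining kept probes, and 16.6% against 41.3% lay above their array's 75th percentile. At the edge of the filter, the 168 intergenic probes well above background on exactly 4 of 5 arrays in their better genotype had a median signal of -4.41, and the 161 with 3 of 5, just outside, had -4.75. Of the 4442, 1778 were well above background on no array of either genotype, and 1694 on all 5 arrays of their better genotype.

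The share of intergenic probes detected was lower on average in knockout hearts, but the groups overlapped and the difference did not pass the test. The shares of the 4442 well above background were 46.0%, 34.2%, 30.1%, 31.5% and 42.5% on knockout arrays 1 to 5 and 41.1%, 45.4%, 46.3%, 47.2% and 49.6% on wild-type arrays 1 to 5. Means were 36.9% ± 7.01 and 45.9% ± 3.12 (SD, n = 5), a difference of -9.03 percentage points (two-sided exact permutation p = 0.0556, adjusted over 6 array measures 0.0762). The share of remaining probes went from 57.7% ± 1.78 in wild type to 50.8% ± 5.46 in knockout hearts (exact permutation p = 0.0397, adjusted 0.0762). On the slide that holds both genotypes the intergenic difference was -10.8 points (5 against 3 arrays, exact permutation p = 0.0357, the smallest that this design can give).

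Among the kept probes, intergenic signal relative to the rest was higher in knockout hearts. The median of the kept intergenic probes minus that of the remaining kept probes was -1.74, -1.76, -1.36, -1.73 and -1.84 on knockout arrays 1 to 5 and -1.89, -1.95, -1.85, -1.89 and -1.80 on wild-type arrays 1 to 5. Knockout replicate 3 stood apart as the highest value and knockout replicate 5 lay inside the wild-type range. Means were -1.69 ± 0.18 and -1.87 ± 0.05 (SD, n = 5), a difference of 0.19 (two-sided exact permutation p = 0.0159, adjusted 0.0476). Without knockout replicate 3 the difference was 0.11 (exact permutation p = 0.0317), and on the slide with both genotypes it was 0.16 (exact permutation p = 0.0714). The filter bears on this measure, since 504 intergenic probes (27.1%) were kept through wild type only and 8 through knockout only, against 16.6% and 45 probes for the remaining set. Array brightness bears on it too. The dimmest array, knockout replicate 3 (75th percentile of 286 units), gave the highest value. Every knockout array was dimmer (460.5 units or less) than every wild-type array (462 or more). Genotype and array brightness therefore cannot be told apart here or in the share detected.

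**Figure D1:**
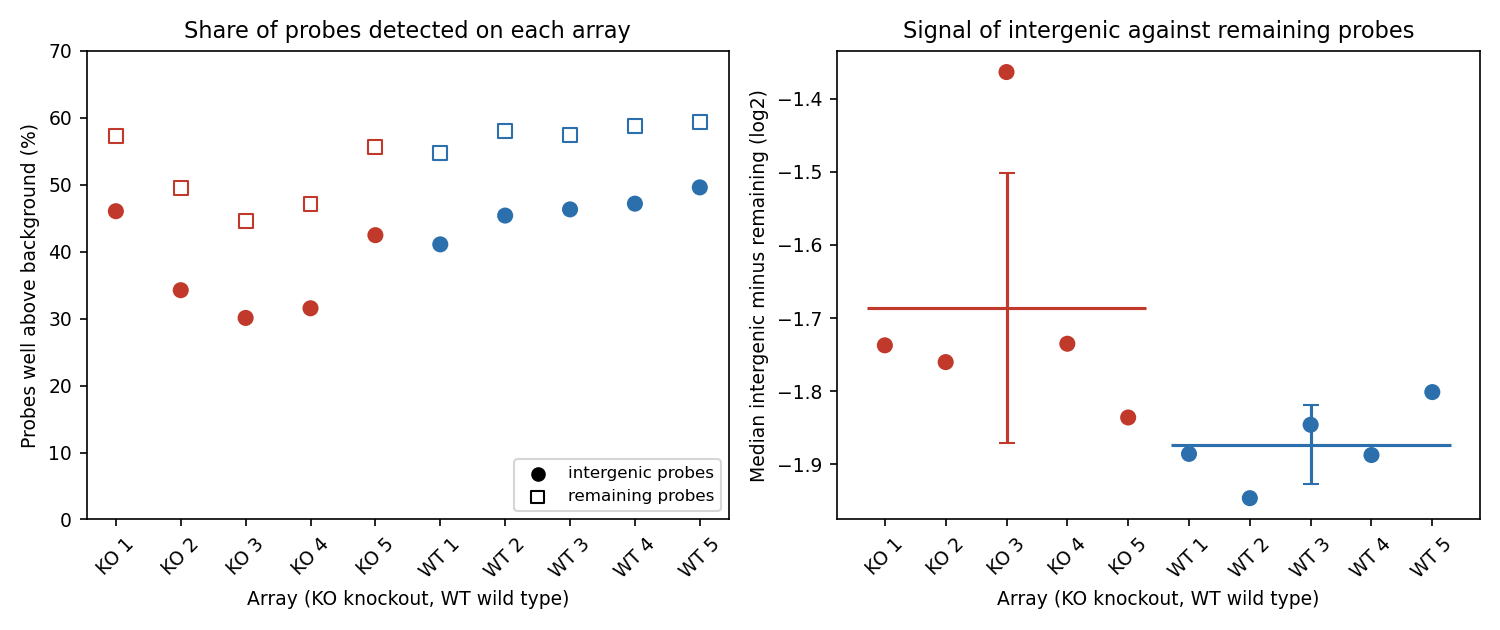
Left, the percent of intergenic probes (filled circles, n = 4442) and remaining probes (open squares, n = 52156) well above background on each of the 10 arrays. Right, the median log2 signal of kept intergenic probes minus that of remaining kept probes on each array, with the mean (line) and SD (bar) of each genotype; knockout replicate 3 is the highest at -1.36.

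Of the 1862 probes, 66 in 61 regions passed the test between genotypes (limma, Benjamini-Hochberg adjusted p under 0.05 over all kept probes), which is 3.54%, against 4.44% of all kept probes and 4.5% of the remaining ones. The calls split into 35 that rose in knockout hearts (1.88%, against 1.69% of all and 1.68% of the remaining probes) and 31 that fell (1.66%, against 2.76% and 2.83%). The number of intergenic probes called was thus near the background. Rises made up 53.0% of intergenic calls and 37.2% of calls among the remaining probes, a description with no test. Under normexp background correction with an offset of 50, in place of the scanner's own, 388 rose and 20 fell (95.1% rises). There 14.7% of all probes were called, 11.2% higher and 3.56% lower. The same offset was added on every array, and every knockout array was dimmer than every wild-type array. Median normexp differences were 0.28 (intergenic) and 0.25 (remaining) for probes with a mean signal under -4. At a signal of 0 or more they were 0.08 and -0.02. The part of the offset and of array brightness in the normexp calls was not tested.

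The whole set of intergenic probes also lay above 0. The median difference was 0.14, with 65.3% of probes above 0, while the remaining probes had a median of 0.00 and 50.2% above 0. Genotypes did not overlap at 178 intergenic probes (9.56%, against 8.5% of all and 8.43% of the remaining probes). At 126 of them all knockout values were above all wild-type values (6.77%, against 4.09% of all and 3.92% of the remaining), and at 52 all were below (2.79%, against 4.41% and 4.51%). Of the 66 called probes, 58 did not overlap (87.9%, against 87.7% of the called remaining probes). Unadjusted p was under 0.05 for 548 intergenic probes (29.4%), against 25.9% of the remaining probes.

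Rises and falls differed in brightness. Of the 35 rises, 29 were well above background on all 10 arrays. Of the 31 falls, 10 were, and 9 were well above background on no knockout array, so their knockout level is only bounded from above and no fold is given for them. Of the 504 probes kept through wild type only, 18 fell (3.57%), against 266 of 4773 such remaining probes (5.57%). Of the 1350 kept in both genotypes, 13 fell (0.96%) and 33 rose (2.44%). Among the 24009 remaining probes kept in both, 2.29% fell and 1.88% rose. A probe kept only through wild type was detected on fewer knockout arrays by construction, so its fall is partly set by the filter. Of the 504 such intergenic probes, 2 were nonetheless called higher (0.40%, against 0.52% of such remaining probes). With the fit limited to probes well above background on all 10 arrays, 69 of 1166 intergenic probes rose (5.92%) and 15 fell (1.29%), 7.20% in all. Over all probes in that fit 6.62% were called, 3.28% higher and 3.34% lower.

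**Figure D2:**
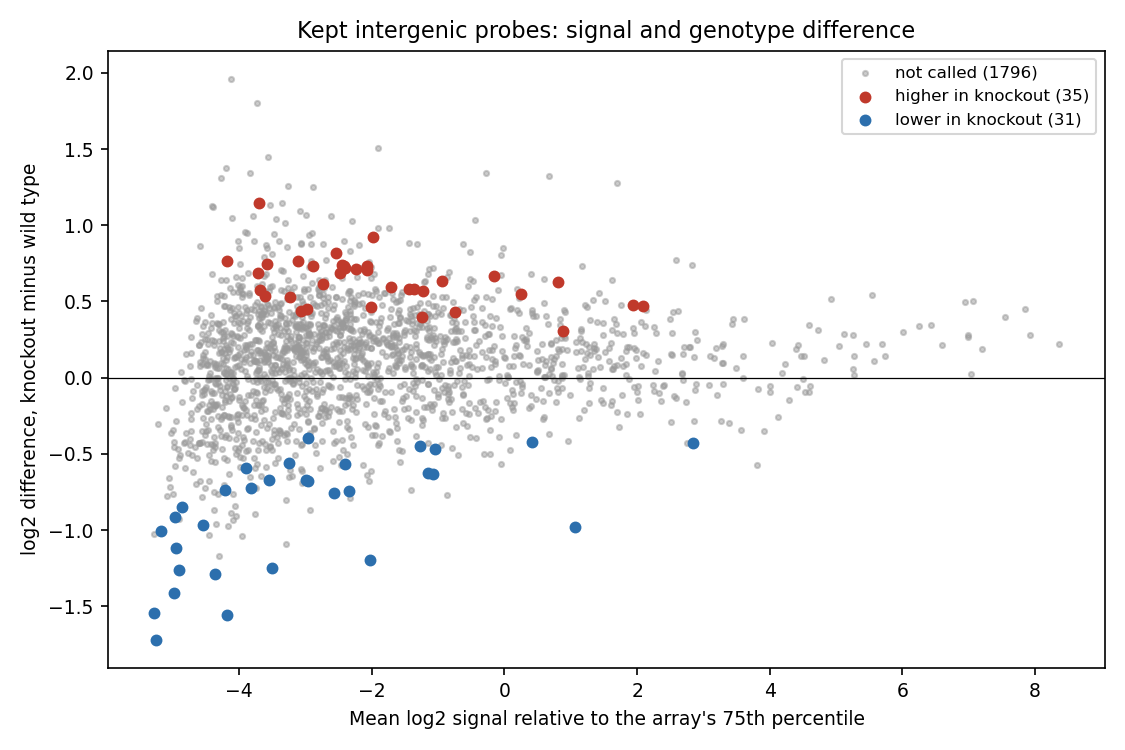
Each point is a kept intergenic probe: the x axis is its mean log2 signal over 10 arrays relative to the array's 75th percentile, the y axis its log2 difference between genotypes. Called rises (35) lie between 0.31 and 1.15 and called falls (31) between -0.40 and -1.72, with the deepest falls at the dim end, where 9 of the falls were well above background on no knockout array.

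The number of calls changed with single arrays and with marker scores in the fit. Without wild-type replicate 5, 4 or 2, new fits called 15, 19 and 17 intergenic probes (0.81%, 1.02% and 0.91%), against 1.00%, 1.17% and 1.34% of the remaining probes. Without knockout replicate 4, 1 or 2 they called 27, 31 and 31 (1.45%, 1.66% and 1.66%, against 2.05%, 2.14% and 1.61%). Without wild-type replicate 1 or 3 they called 37 and 41 (1.99% and 2.20%, against 3.11% in both), and without knockout replicate 3 or 5, 56 and 66 (3.01% and 3.54%, against 4.05% and 3.80%). On the slide with both genotypes 15 were called (0.81%, against 1.7% of all probes). With the atrial score as a covariate 3 were called, all falls (0.16%, against 0.254% of all probes), and with no filter on dim probes 12 of 4442 were (0.27%, against 0.389% of all probes). With the atrial and fat scores together limma called 0 intergenic probes, against 1 of 28827 remaining probes. The median difference of the 35 rises was 0.63 in the main fit, 0.60 with the atrial score and 0.61 with both scores. For the 31 falls it was -0.74, -0.77 and -0.81. On the slide with both genotypes the medians were 0.57 and -0.69. All 66 kept their direction in each of these fits, and 53 did under normexp. The 13 that turned under normexp were all falls. Of the 31 falls 8 stayed called there, and all 35 rises did.

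The strongest forward-strand rise covered 2 neighbouring regions of chromosome 16. Probe A_30_P01028355, in chr16:23534663-23535172 (mm9), read -1.20, -1.76, -1.55, -1.50 and -1.58 on knockout arrays and -2.79, -2.75, -2.42, -2.0 and -2.24 on wild-type arrays. Every knockout array lay above every wild-type array, and the difference was 0.92 ± 0.16 (SE, n = 5), or 1.89-fold (limma adjusted p = 0.0189). A second probe of the same region, A_30_P01020675, rose by 0.82 ± 0.17 (adjusted p = 0.0281), again without overlap. The next region on the same strand, chr16:23543837-23560153, begins 8665 bp further on. There A_30_P01018953 read -2.42, -3.02, -2.58, -2.94 and -2.71 in knockout and -3.91, -3.66, -3.41, -3.26 and -3.25 in wild type, a difference of 0.76 ± 0.16 (adjusted p = 0.0291). The call of A_30_P01028355 stayed whichever array was left out, but on the slide with both genotypes the 3 probes differed by 0.70, 0.62 and 0.57 and none was called (adjusted p = 0.0543, 0.0904 and 0.0886). That of A_30_P01020675 was lost without knockout replicate 1 or 4 or wild-type replicate 1, 2, 3 or 5, and that of A_30_P01018953 without knockout replicate 1 or wild-type replicate 2, 4 or 5 (adjusted p up to 0.059 and 0.07). The nearest named gene with a kept probe, Masp1 (a serine protease of the lectin pathway of complement), lies on the opposite strand 44199 bp from the first region and differed by 0.01.

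The rise with the smallest adjusted p lay near Tgfbr3. Probe A_30_P01019218, in chr5:107503800-107515575 on the reverse strand, read -2.10, -2.03, -2.11, -1.92 and -2.09 on knockout arrays and -2.57, -2.51, -2.87, -2.84 and -3.04 on wild-type arrays. Knockout values sat together above all wild-type values, and the difference was 0.72 ± 0.11 (limma adjusted p = 0.0123). It stayed called whichever array was left out, and on the slide with both genotypes (0.87, adjusted p = 0.0128). Tgfbr3, a co-receptor for TGF-beta ligands on the same strand 20243 bp away, differed by 0.04 (adjusted p = 0.909).

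A forward-strand region of chromosome 14, chr14:77511189-77522852, held 2 called rises among 3 kept probes. The values of A_30_P01032293 were -2.48, -2.47, -2.42, -2.32 and -2.41 in knockout and -2.76, -3.28, -3.11, -3.15 and -2.88 in wild type, a difference of 0.62 ± 0.11 (limma adjusted p = 0.0174). A_30_P01020003 rose by 0.69 ± 0.13 (adjusted p = 0.0215). Both calls held on the slide with both genotypes (0.63 and 0.79). In both, the genotypes did not overlap, and the second call was lost without wild-type replicate 4 or 5 (adjusted p up to 0.055). The dimmest probe, A_30_P01031436, differed by 0.40 (adjusted p = 0.14) with overlapping groups.

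The largest rise, A_30_P01017505 in chr1:55298349-55308374 on the reverse strand, read -3.81, -3.00, -2.94, -3.42 and -2.47 in knockout and -4.98, -4.32, -3.92, -4.09 and -4.05 in wild type. Its difference was 1.15 ± 0.26, or 2.21-fold (limma adjusted p = 0.0382), and the call was lost when any array other than knockout replicate 1 or wild-type replicate 3 was left out (adjusted p up to 0.083). On the slide with both genotypes it was 0.89 (adjusted p = 0.119), and with the slide as a block the adjusted p was 0.107. Mars2, the mitochondrial methionyl-tRNA synthetase gene, lies 2648 bp away on the opposite strand and differed by 0.32 (adjusted p = 0.152).

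The other 8 of the 12 largest rises lay between 0.70 and 0.77, each without overlap and with adjusted p from 0.0262 to 0.0414. On the slide with both genotypes none of these 8 was called (adjusted p = 0.0564 to 0.133). They lie in chr17:29374758-29387733, chr11:58659807-58676282, chr19:19005109-19008657, chr7:88126007-88138301 and chr1:36012298-36020311 on the reverse strand and in chr19:6889912-6890333, chr14:78934381-78934808 and chr1:71730016-71740391 on the forward strand. Of their nearest kept named genes within 100 kb, Ppil1 (a cyclophilin, 148 bp from the chromosome 17 region on the same strand) differed by 0.11, Rps6ka4 (a nuclear kinase) by 0.01 and Fn1 (fibronectin) by -0.39, none called. The clone gene 1110002O04Rik, 74338 bp from chr1:36012298-36020311, was called with 0.64 (limma adjusted p = 0.0427). Among the 8, the probe of chr17:29374758-29387733 was well above background on 3 knockout and 5 wild-type arrays, so it was kept through wild type only. It read -4.13 to -3.26 in knockout and -4.79 to -4.32 in wild type.

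Of the 12 largest falls, 2 were well above background on all 10 arrays. Probe A_30_P01032418, in chr14:55671783-55680316 on the reverse strand, read -2.44, -2.57, -2.44, -2.91 and -2.76 in knockout and -1.71, -1.52, -1.29, -1.37 and -1.24 in wild type. All knockout values lay below all wild-type values, with a fitted difference of -1.20 ± 0.13 (SE, n = 5), 2.29-fold lower (limma adjusted p = 0.00561). Zfhx2, which encodes a zinc finger homeodomain transcription factor, has a probe on the same strand 345 bp from the region, with a difference of -0.59 (adjusted p = 0.0583). A forward-strand region inside the same interval, chr14:55672705-55675212, differed by 0.15 (adjusted p = 0.624).

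The other, and the brightest, lay on the strand of Neat1, beyond the Neat1 probes of the array. Neat1 is the architectural RNA of paraspeckles, nuclear bodies that hold RNA-binding proteins, and is made in a short and a long form from one start. Probe A_30_P01019037, in chr19:5834117-5835940 on the reverse strand, read 0.74, 0.34, 0.64, 0.69 and 0.46 in knockout and 1.76, 1.47, 1.81, 1.16 and 1.55 in wild type. All knockout values were below all wild-type values, and the difference was -0.98 ± 0.14, or 1.97-fold lower (limma adjusted p = 0.00941). The 3 Neat1 probes, the nearest 6714 bp away on the same strand, had differences of -0.11, -0.12 and -0.37 (adjusted p = 0.665, 0.673 and 0.285). Whether the region belongs to the long form was not tested, since no mm9 gene models were used here.

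The reverse-strand region chr18:61781410-61788685 fell near Carmn, a noncoding RNA of cardiac and smooth muscle precursors. Probe A_30_P01032470 read -4.80, -5.24, -5.24, -4.80 and -4.71 in knockout and -3.90, -3.48, -3.22, -3.05 and -3.36 in wild type, with no overlap. Only 1 of 5 knockout arrays was well above background, so the probe was kept through wild type only. The fitted difference of -1.56 ± 0.17 (limma adjusted p = 0.00561) rests on knockout values that were mostly not above background, and no fold is given. A second probe of the region, A_30_P01017774, differed by -0.64 (adjusted p = 0.0621). Carmn, 16842 bp away on the same strand, differed by -0.11 (adjusted p = 0.615), and Bvht, a noncoding RNA of cardiac commitment on the opposite strand, by -0.06 (adjusted p = 0.88). These falls beside Carmn, Neat1 and Zfhx2 were the 3 calls that stayed with the atrial score as a covariate. All 3 also stayed whichever array was left out, and on the slide with both genotypes (-1.75, -0.93 and -1.32), but the fall beside Carmn has the limit just given.

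In regions of chromosomes 2 and 4, 2 probes each were called lower, 1 of each pair with knockout values mostly not above background. In chr2:60038543-60046318 on the reverse strand, A_30_P01024134 read -1.41, -1.36, -1.62, -1.48 and -1.44 in knockout and -0.83, -0.64, -1.03, -0.89 and -0.78 in wild type. That probe fell by -0.62 ± 0.09 (limma adjusted p = 0.0105), and on the slide with both genotypes by -0.56 (adjusted p = 0.0386). For the dimmer A_30_P01021448, kept through wild type only with 2 knockout arrays well above background, the fitted difference was -1.29 ± 0.25 (adjusted p = 0.025). Its call was lost without wild-type replicate 2, 4 or 5 (adjusted p up to 0.06) and on the slide with both genotypes (adjusted p = 0.0966). Another reverse-strand probe differed by -0.43 and the forward-strand probe by 0.56 (adjusted p = 0.319 and 0.32). In chr4:146507925-146532650 on the reverse strand, the adjoining probes A_30_P01024929 and A_30_P01020436 fell by -0.63 ± 0.10 and -0.56 ± 0.12 (adjusted p = 0.0126 and 0.036). The first of them read -1.25, -1.46, -1.34, -1.35 and -1.52 in knockout and -0.69, -0.62, -1.0, -0.62 and -0.85 in wild type, with no overlap. The second had 2 knockout arrays well above background and was kept through wild type only. Its call was lost without knockout replicate 2, 3 or 4 or wild-type replicate 1, 2, 4 or 5 (adjusted p up to 0.082), and on the slide with both genotypes both calls were lost (adjusted p = 0.0512 and 0.0978).

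The other 8 of the 12 largest falls were well above background on no knockout array, so their knockout level is only known to be low. Measured wild-type means ran from -4.52 to -4.06 and knockout means from -6.11 to -5.03. The limma adjusted p ran from 0.0151 to 0.0367, but these probes were kept through wild type only, so the filter partly fixed the outcome. They lie on the reverse strand in chr13:28952570-28953234, chr2:128217275-128217972, chr8:19692532-19694101, chr6:3333825-3349525, chr3:30059174-30060808 and chr1:108664564-108665243, and on the forward strand in chr9:31873801-31874407 and chr17:3346621-3347209. Under normexp, 7 of these turned above 0. Among kept neighbours on the same strand, Morrbid, a noncoding RNA of myeloid cell survival, differed by 0.23, Samd9l, an interferon-induced gene, by -0.30, Sox4, a developmental transcription factor, by 0.18 and Vps4b, an endosomal sorting ATPase, by -0.20, none called.

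**Figure D3:**
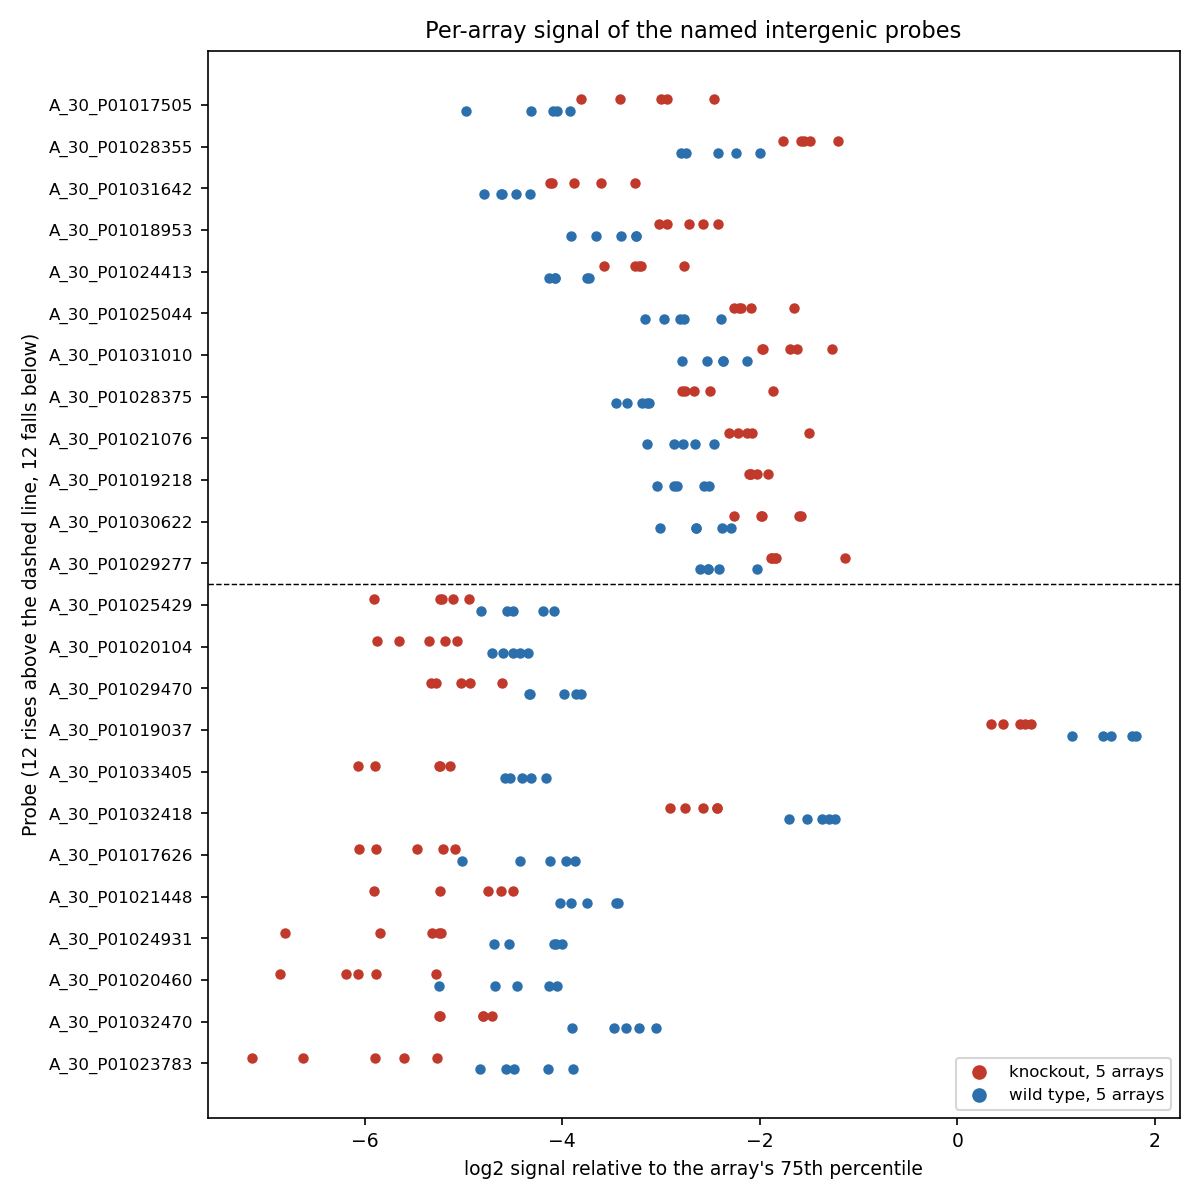
Signal of the 24 intergenic probes with the largest called differences, 12 rises above the dashed line and 12 falls below it; each point is 1 array, red for knockout and blue for wild type, on the log2 scale relative to the array's 75th percentile. In every one the genotypes do not overlap, which the choice of probes fixed, and the falls other than A_30_P01019037 and A_30_P01032418 sit below -3 on all wild-type arrays.

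Detection was nearly even between strands, with slightly more reverse-strand probes kept. Of 2222 forward probes 910 were kept (41.0%), and of 2220 reverse probes 952 (42.9%). Forward probes gave 19 rises (2.09%) and 7 falls (0.77%), 2.86% called in all. Reverse probes gave 16 rises (1.68%) and 24 falls (2.52%), 4.2% in all. Over all kept probes 1.69% rose and 2.76% fell. Median differences were 0.16 on the forward and 0.11 on the reverse strand. No test was made between these probe sets, which are not replicates. Of 831 regions with probes on both strands, 220 were kept on both, 181 on the forward strand only, 207 on the reverse strand only and 223 on neither.

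By correlation, the strands of a region shared little of their difference between genotypes, and probes on 1 strand shared more. The sign matched about as often across strands (62.7% of pairs) as within a strand (65.3%). Over the 220 regions kept on both strands, with the brightest probe of each, the differences of the strands correlated at r = 0.08 (Spearman rho = 0.09), had the same sign in 138 and were called on 1 strand in 14 and on both in 0. Over 98 region names with 2 or more kept probes on a strand, the brightest pair correlated at r = 0.48 (rho = 0.46), with the same sign in 64 and 2 called probes in 4. All these points share the same 10 arrays, so the correlations are descriptions. The only region with called probes on both strands was chr17:35080914-35090009, where A_30_P01017723 (reverse) and A_30_P01026822 (forward) were both lower in knockout with overlapping groups. Both were kept through wild type only, with 0 and 2 knockout arrays well above background, so the sizes of these falls were not measured. A brighter reverse-strand probe there, A_30_P01022237, differed by 0.22 (limma adjusted p = 0.214), and the clone gene 1110038B12Rik inside the region by 0.21.

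**Figure D4:**
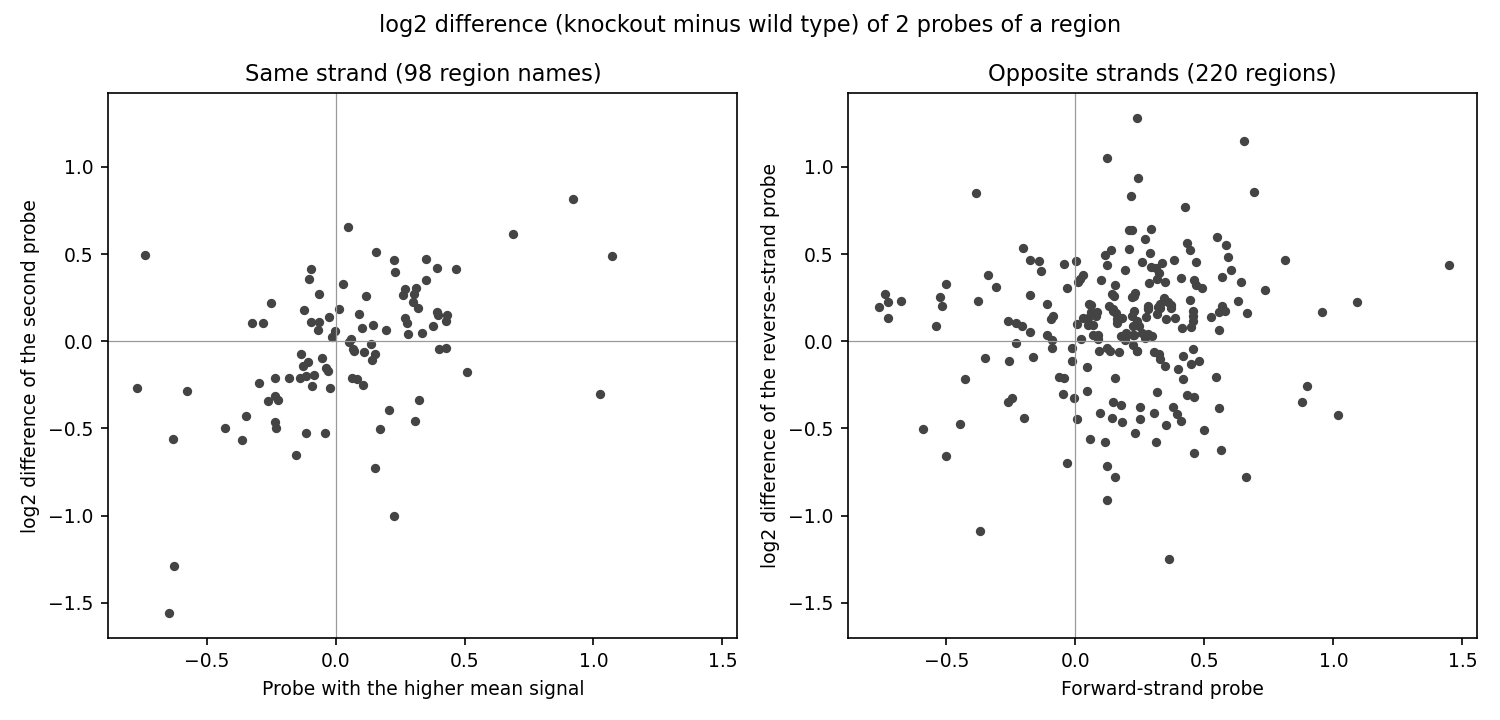
Log2 difference of 2 kept probes from the same region. Left, 98 region names with 2 probes on 1 strand (r = 0.48); right, 220 regions with a probe on each strand (r = 0.08).

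Called rises and falls differed in base composition. Called rises had a median of 48.3% G and C bases and called falls 40%. Of 416 intergenic probes with at least 55% G and C, 12 rose and 0 fell by limma, and of 2992 remaining probes 105 rose and 24 fell. At 35 to under 40%, 3 rose and 13 fell of 267 intergenic probes, and 98 rose and 382 fell of 9315 remaining probes. Across the kept intergenic probes the difference correlated with G and C content at r = 0.28 (rho = 0.31, n = 1862), and across the remaining probes at r = 0.26 (rho = 0.29, n = 28827). Intergenic probes had a median of 45% G and C against 43.3%. At 40 to under 45% their median difference was 0.08 against -0.03 for the remaining probes, and at 55% or more 0.23 against 0.17. The part of base composition in the calls was not tested.

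**Figure D5:**
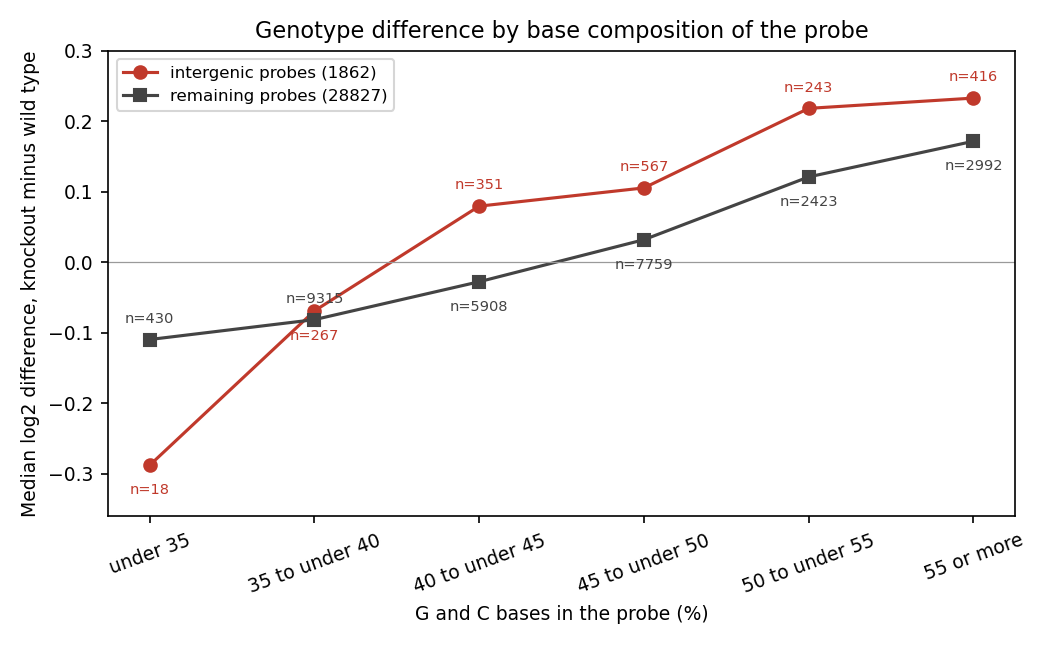
Median log2 difference by percent of G and C bases in the probe, for kept intergenic probes (circles) and remaining kept probes (squares), with the number of probes beside each point. Both sets go from below 0 in the lowest bins to above 0 at 55% or more, where the medians are 0.23 and 0.17.

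The polyadenylation hexamer was scarcer in the intergenic probes than in the remaining ones. AATAAA stood in 83 of 1862 kept intergenic probes (4.46%) and in 11.3% of the remaining kept probes of the same 60-base length. Its reverse complement TTTATT, which cannot overlap it as the same match, stood in 2.58% and 3.84%. Among intergenic probes that were not kept, AATAAA stood in 3.64%. The upper quartile of G and C content was 53.3% in kept intergenic and 45% in remaining kept probes, and its part in these shares was not tested. None of the 35 called rises held either hexamer, too few probes at these shares to show a difference. Among the falls A_30_P01024134 held AATAAA and A_30_P01020436 held TTTATT.

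Most regions held no probe of a named gene. A named gene probe of the same orientation lay inside the region for 245 probes (13.2%), of the opposite orientation alone for 183, and none for 1434. Where the nearest kept gene probe lay inside and ran the same way, the differences of the intergenic and the gene probe correlated at r = 0.36 (rho = 0.33, n = 152), and where it ran the opposite way at r = 0.11 (n = 133). Over all 1597 probes with a kept gene probe within 100 kb, r was 0.10. These pairs share arrays, and a pair inside a region may measure one transcript. Only 7 kept probes shared 30 bases with a remaining probe in the same sense and 19 in the reverse complement, and 0 of the 66 called did.

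Of the 66 called probes, 55 had a kept named gene within 100 kb, and 32 of these (58.2%) differed in the same direction. The nearest gene probe was itself called in the same direction for 2 (3.64%) and in the opposite direction for 2 (3.64%). Of all remaining kept probes, 4.5% were called in either direction. In chr8:94841965-94881130 on the reverse strand, A_30_P01032525 read -1.01, -1.10, -1.46, -1.17 and -1.03 in knockout and -1.80, -1.75, -1.68, -1.66 and -1.79 in wild type, a rise of 0.58 ± 0.10 (limma adjusted p = 0.0165). Crnde, a long noncoding RNA with a probe inside that region on the same strand, rose by 0.63 (adjusted p = 0.0473). In 2 cases the neighbour was called the other way. A reverse-strand probe in chr8:87504644-87513694 rose by 0.63 while Junb, an AP-1 subunit gene 2704 bp away on the same strand, fell by -0.99 (adjusted p = 0.046 and 0.017). A forward-strand probe in chr13:16050871-16065396 rose by 0.43 while Inhba, the activin beta A subunit gene 53238 bp away on the same strand, fell by -1.01 (adjusted p = 0.047 and 0.049).

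Near Hipk2 itself, 5 kept intergenic probes lay within 2 Mb and none was called. The largest, A_30_P01022287 in chr6:39269398-39269896 on the reverse strand, read -1.35, -1.66, -1.02, -1.43 and -1.47 in knockout and -1.86, -2.12, -1.75, -1.99 and -1.71 in wild type. The groups did not overlap, but the difference of 0.50 ± 0.13 missed the threshold (limma adjusted p = 0.0534). The other 4 ranged from -0.09 to 0.41.

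Few of the named long noncoding RNAs on the array changed. Of 62 on a list that was written with earlier results of these data known, 43 had a kept probe. Crnde alone rose, and Gata6os, the antisense partner of the cardiac transcription factor gene Gata6, alone fell (-0.65 ± 0.15, limma adjusted p = 0.0389). The list takes 1 probe a gene, and the other 2 kept Gata6os probes differed by -0.24 and -0.23 (adjusted p = 0.281 and 0.614). These are 2.33% of the list in each direction against 1.69% and 2.76% of all probes. The list's median difference was -0.07, with 18 of 43 above 0, where all kept probes had a median of 0.01. Mhrt, a noncoding RNA of the myosin heavy chain locus, differed by 0.10 and Meg3 by -0.16, with adjusted p of 0.585 and 0.671.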

How the data were processed

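The deposited files hold scanner intensity values per spot, which the authors produced with Agilent Feature Extraction 10.7.1.1, per the file headers, on an array designed on mm9. The authors also deposited a table of log2 values for the same arrays. Each kept probe's mean over the 10 arrays was subtracted from the deposited and from the scaled scanner values. These deviations correlated at r of 0.918 to 0.996 for the same array. The deposited table had column medians of 4.74. Its normalization is not given in the sources used here. It gave as many intergenic calls (53 higher, 42 lower) as quantile normalization. These calls are 5.10% of intergenic probes, against 5.51% of the remaining probes in the deposited values.

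Processed signals were taken to log2 after scaling each array by its 75th percentile over probes that are not controls. Spots of a probe were averaged and outlier spots left out. Probes well above background on at least 4 of 5 arrays of a genotype were tested with limma 3.58.1 (R 4.3.3), 5 knockout against 5 wild type, adjusted by Benjamini-Hochberg over all 30693 kept probes at 0.05. In simulated data of that size the fit recovered 0%, 83% and 98% of 200 probes changed by 0.5, 1 and 2 on the log2 scale. Only those 200 of 30693 probes were changed there, while 1364 of the real kept probes were called. The smallest called intergenic difference was 0.31, so the simulated rates do not give the sensitivity in the real data. Array-level values were set against each other with exact permutation tests, two-sided (smallest possible p 0.00794). The number of arrays limits the precision.

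The members, marker lists, noncoding RNA list and alternatives were chosen with earlier results of these data known. Named probes are the 12 largest called rises and falls whose genotypes do not overlap, 1 per region, regions with several called probes, and kept probes within 2 Mb of Hipk2. Probes outside this rule (A_30_P01032525, A_30_P01017774 and the probes beside Junb and Inhba) were named after their values were seen, as were the bins of signal and base composition. Gene names came from the file or, by accession or symbol, from RefSeq tables. Distances are between a region and a gene's probe.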

Additional observations from a re-analysis of the deposited data

Results flagged for a closer look

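Of 82 groups of 5 arrays examined, 3 held a value set apart from the other 4 (gap over range above Dixon's critical value of 0.71). Chance flags about 1 in 20 groups, so 3 is no excess. In the median of intergenic minus remaining probes, knockout replicate 3 read -1.36 and the next knockout array -1.73. For the probe of chr1:71730016-71740391 on the forward strand, the same array read -1.50 and the next -2.08. For the probe of chr1:36012298-36020311 on the reverse strand, knockout replicate 2 read -1.14 and the next -1.83.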

How the results depend on the processing

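The calls were few relative to the spread of dim probes and moved with most settings. Against 66 intergenic calls (35 higher, 31 lower, 26 forward, 40 reverse), normexp gave 408 (388, 20, 206 and 202), and quantile normalization and the deposited log2 values each gave 95 (53, 42, 40 and 55). Without a filter on dim probes there were 12 (7, 5, 5 and 7), and with probes well above background on all arrays 84 (69, 15, 35 and 49). The slide as a block gave 33 (13, 20, 10 and 23), the slide with both genotypes alone 15 (5, 10, 4 and 11), the atrial score 3 (0, 3, 0 and 3) and the atrial and fat scores 0 in each class by limma. Normexp called 21.9% of intergenic and 14.3% of remaining probes, quantile normalization 5.10% and 5.54%, and the deposited values 5.10% and 5.51%. The slide block called 1.77% and 3.14%, and both scores together called 0 intergenic and 1 of 28827 remaining probes. Where a genotype effect and a slide or score overlap, the fit has less to estimate it with, and the cause of these changes was not tested. One probe per name gave 72 (4.12%, against 5.05% of the remaining probes). Leaving out 1 array gave 15 to 66 calls, 6 to 41 higher, 9 to 26 lower, 4 to 31 forward and 10 to 35 reverse. With the replicate number as a block, 12 intergenic probes were called (3 higher, 9 lower, 3 forward, 9 reverse). They are 0.64%, against 0.79% of the remaining probes. The samples share only a number: deviations of same-numbered samples correlated at -0.10 to 0.06.

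The share detected differed by -10.8 points on the slide with both genotypes and by -11.3 to -7.34 with 1 array left out. The relative median differed by 0.16 on that slide, by 0.11 to 0.22 with 1 array left out, by 0.23 under normexp and by 0.20 with probes detected on all arrays.

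Of the 32 named called probes, 11 stayed called whichever array was left out and 16 in 5 or fewer of 10. Their direction held except under normexp, where 9 dim probes turned: chr9:31873801-31874407 to 0.012, chr17:3346621-3347209 to 0.077, chr2:128217275-128217972 to 0.076, chr8:19692532-19694101 to 0.028, chr6:3333825-3349525 to 0.11, chr3:30059174-30060808 to 0.20, chr1:108664564-108665243 to 0.10, and chr17:35080914-35090009 to 0.091 on the reverse and 0.029 on the forward strand. Signal over background limits the falls, since 9 of 31 called falls were well above background on no knockout array.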
